A study of Sus scrofa with 28 samples.

Results

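The 14 low fat content libraries of a pig liver chromatin series were compared by their number label, 7 labelled 600 against 7 labelled 200. They were chosen by the sample column of the deposited peak table and are 14 of its 28 libraries, with 32354 of 84192 listed peaks (38.4%). The assay was ATAC-seq, in which a transposase cuts DNA that is not wrapped tightly in nucleosomes and tags the cut ends for sequencing. Places where cuts pile up are called as peaks, which mark promoters, enhancers and other open chromatin. Short fragments come mostly from DNA free of nucleosomes, and longer ones span nucleosomes.

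The tissue was liver of females of the Zlotnicka White breed aged 180 days, all kept on the same feed in the same housing and slaughtered near 100 kg. Per the labels' protocols, pieces of liver in a hepatocyte medium were digested with Accutase, strained, frozen slowly and tagged with a TruePrep library kit. No treatment, transgene or other allele is named for any group. Breed, sex, age and the protocol text are the same for both labels, and whether the labels mark a difference in preparation is not stated. The words low fat content stand under a tag called shear force, and that tag does not name fat of the liver. The labels do not say what 200 and 600 mean. In the low fat group both labels have the replicate numbers 1 to 7, and a 600 and a 200 library with the same replicate number also share the running number in their titles. The labels do not name animals, so the p-values measure the spread between these libraries, which may be technical. All 200 libraries carry the lane tag L001 and all 600 libraries the tag L002, so lane and label cannot be told apart.

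The table holds no read counts, and the depth of the libraries is unknown. A place missing from a list may be closed, thinly sequenced or taken off the list, by a rule not given in the sources used here. In bulk tissue, fewer cells of a type and less open chromatin per cell cannot be told apart. Peak strength is the deposited −log10 p of a peak, its area is the deposited signal value, and its height is that area divided by the width. Replicate 2 stands apart in both labels, with the shortest lists and few peaks near genes, and results that rest on it are given with and without it.

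The 600 libraries listed fewer peaks than the 200 libraries of the same number in 7 of 7 cases. The 200 libraries of replicates 1 to 7 listed 8221, 196, 635, 2467, 617, 4208 and 6691 peaks. The 600 libraries listed 3332, 101, 141, 526, 119, 1325 and 3775. The lists thus differed more between replicate numbers than between labels, and the groups overlap widely. The ratio of 200 to 600 within a number was 1.77 to 5.18 (median 3.18). These are the peaks left after an unknown removal. By the highest running number in the peak names, the 200 library had 2.30 to 29.0 times as many numbered peaks as the 600 library of its number (median 3.83), and the listed share was at most 3.52% to 35.0% in 200 and 3.04% to 52.6% in 600. On the log10 scale the mean was 2.74 ± 0.68 (SD, n = 7) in 600 and 3.23 ± 0.61 in 200, a difference of -0.496 that did not pass (exact permutation test over all divisions of 7 against 7, two-sided, p = 0.173, adjusted p = 0.260 over 6 library measures). Within numbers the difference passed (exact sign-flip permutation, p = 0.0156, the smallest that 7 numbers allow, adjusted p = 0.0234).

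Peaks of the 600 libraries were wider. The median width was 981, 995, 1061, 1006.5, 934, 1020 and 1084 bp in the 600 libraries of replicates 1 to 7. It was 542, 517, 545, 509, 488, 504 and 577 bp in the 200 libraries. The groups do not overlap: the lowest 600 value, 934 bp, lay well above the highest 200 value, 577 bp. The means were 1011.6 ± 50.02 bp in 600 and 526.0 ± 30.32 bp in 200, 485.6 bp apart (439 to 516 within numbers), and the difference passed (exact permutation test, two-sided, p = 0.000583, the smallest possible, adjusted p = 0.00350). The ratio within a number stayed between 1.81 and 2.02 although the peak number ran over a wide range. The narrowest low fat peak was 209 bp in 200 and 440 bp in 600, and 29.95% of all 200 peaks were narrower than the narrowest 600 peak.

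The wider peaks were weaker. Median peak strength was 3.57 to 4.32 in the 600 libraries (median 3.67) and 4.00 to 4.75 in the 200 libraries (median 4.18). The groups overlap, since the 600 library of replicate 2 lay above several 200 libraries, but each 600 library was below the 200 library of its number. The means of 3.78 ± 0.27 and 4.33 ± 0.33 differed by -0.541 (exact permutation test, two-sided, p = 0.00699, adjusted p = 0.0210). Median height was 1.14 ± 0.157 in 600 and 1.31 ± 0.177 in 200 and did not pass between groups (exact permutation test, two-sided, p = 0.0775, adjusted p = 0.155). It was lower in 600 within 7 of 7 numbers (exact sign-flip permutation, p = 0.0156, adjusted p = 0.0234). The median area per peak was 1.62 to 2.34 times larger in 600 (median 1.80), so the extra width outweighed the lower height.

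**Figure D1:**
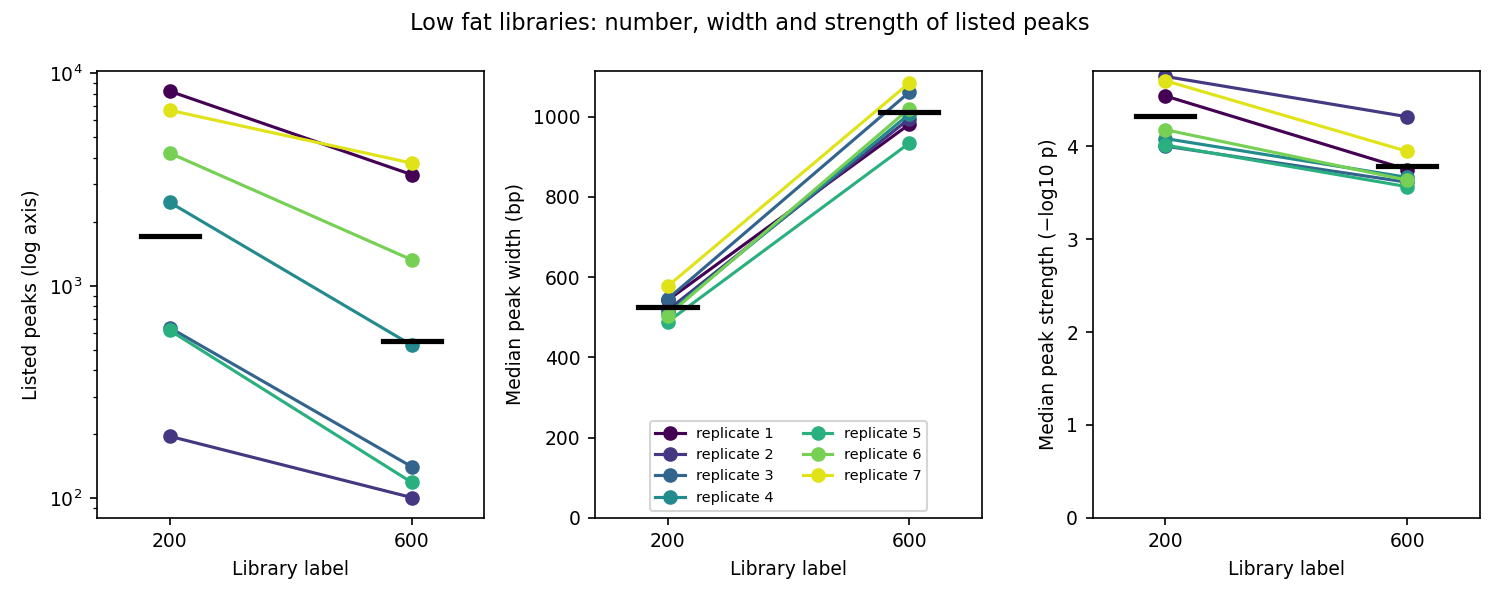
Number of listed peaks (log axis), median peak width in bp and median peak strength (−log10 p) of each low fat library, with a line joining the 200 and the 600 library of each replicate number and black bars for group means (the mean of log10 values for peak numbers). All 7 lines fall for number and strength, and all 7 rise for width, from 488 to 577 bp up to 934 to 1084 bp.

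The labels did not differ detectably in where their peaks lay relative to genes. The share of peaks centred within 1000 bp of an annotated gene end was 55.1% ± 25.01 in 600 and 50.6% ± 22.1 in 200 (exact permutation test, two-sided, p = 0.668, adjusted p = 0.801). Such windows cover 4.12% of the chromosomes. Replicate 2 was the low value of both labels, at 1.98% in 600 and 5.10% in 200, while the other 12 libraries lay between 41.0% and 73.2%. Without the 600 library of replicate 2 the difference was 13.2 percentage points, and without the 200 library of replicate 2 it was -3.19, neither past the threshold. The share outside annotated genes was 47.3% ± 19.9 in 600 and 47.5% ± 15.3 in 200 (exact permutation test, two-sided, p = 0.976). The difference was -7.35 percentage points without the 600 library of replicate 2 and 5.22 without its 200 library, neither past the threshold.

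The same label difference was set beside that of the 14 high fat libraries, which enter none of the values above. The width difference was 485.6 bp in low fat and 497.7 bp in high fat, with 7 of 7 numbers wider in 600 in each (exact permutation of the fat groups, p = 0.726, adjusted p = 0.747). The strength difference was -0.541 in low fat and -0.228 in high fat, where 6 of 7 numbers were lower in 600. That difference of -0.313 did not pass after adjustment over 6 measures (exact permutation, p = 0.0379, adjusted p = 0.227). The height difference was -0.173 in low fat and -0.00119 in high fat, where 5 numbers were lower and 2 higher in 600 (exact permutation, adjusted p = 0.331). For the share outside genes it was -0.216 and 5.88 percentage points (exact permutation, adjusted p = 0.247).

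Most 600 peaks lay on a 200 peak of the same number. The share was 90.3%, 79.2%, 64.5%, 90.1%, 42.9%, 85.1% and 83.4% for replicates 1 to 7, in all 7981 of 9319 peaks. Replicates 3 and 5, with short lists in both labels, were the lowest. The mean share on the 6 other-numbered 200 libraries was 36.7%, 66.8%, 64.7%, 60.6%, 58.5%, 49.9% and 33.1%, a value that moves with the length of those lists. The own number was higher by 23.6 ± 25.9 percentage points, in 5 of 7 numbers (exact sign-flip permutation, two-sided, p = 0.0938). With every 200 list held to its 196 strongest peaks, a choice made after the data were seen, the difference was 7.43 points and positive in 7 of 7 numbers (exact sign-flip permutation, p = 0.0156). Of those 7 values 39.3 points came from replicate 2, whose whole list it is, and the other 6 were 0.28 to 5.93. Only 550 peaks of 600 libraries (5.90%) lay on no low fat 200 peak, and 165 lay on no 200 peak of the whole series.

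The reverse share was smaller. Of 23035 peaks of the 200 libraries, 8390 (36.4%) overlapped a 600 peak of the same number. The share was 38.4%, 49.0%, 15.6%, 20.3%, 9.08%, 28.2% and 49.2% for replicates 1 to 7. It rose with the strength of the 200 peak. With each 200 list divided into 5 equal groups by strength, the weakest group overlapped at 10.0%, 10.0%, 3.15%, 5.06%, 1.61%, 9.50% and 20.3%, and the strongest at 87.7%, 89.7%, 35.4%, 57.3%, 21.8%, 67.0% and 90.8%. The gap was 55.7 ± 22.7 percentage points and positive in 7 of 7 numbers (exact sign-flip permutation, two-sided, p = 0.0156). Overlapping 200 peaks also had a larger median width than the others in each number, for example 700 against 480 bp in replicate 1. Width was not held fixed in this comparison. Overlap of 200 peaks near gene ends and elsewhere differed by 2.47 ± 18.0 points (exact sign-flip permutation, p = 0.703), and without replicate 2, which has 10 peaks near gene ends, by 7.97 points (p = 0.156).

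**Figure D2:**
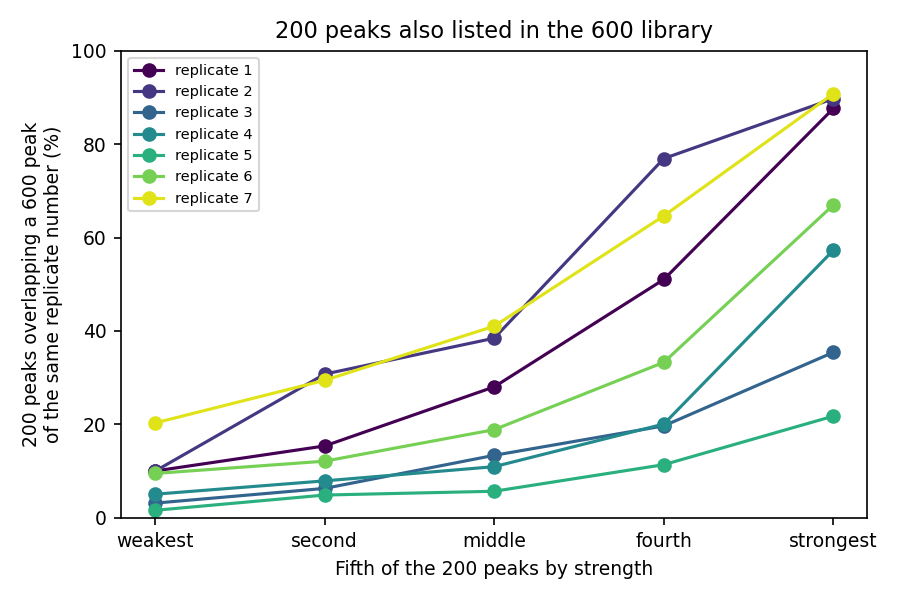
Share of the 200 peaks (%) that overlapped a 600 peak of the same replicate number, for 5 equal groups of the 200 list ordered by strength, with 1 line per replicate number. Each line climbs, from 1.61% to 20.3% in the weakest group to 21.8% to 90.8% in the strongest.

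Sites listed in both libraries of a number showed the width difference directly. There were 3005, 76, 90, 471, 51, 1125 and 3146 such sites in replicates 1 to 7, 7964 in all. The median width difference, 600 minus 200, was 273, 359.5, 378, 339, 412, 383 and 362 bp. All 7 were positive, with a mean of 358 ± 43.9 bp (exact sign-flip permutation, two-sided, p = 0.0156, adjusted over 3 measures the same). Between 80.3% and 98.0% of the sites of a number were wider in 600. In 64.5% to 82.3% of the sites of a number the whole 200 peak lay inside the 600 peak. Over all shared sites of a number, the 600 peak reached a median of 135 to 189 bp further on the left. On the right the median was 139 to 175 bp. These medians were about equal on both sides, which does not show that single sites widened equally. The summits were a median of 101 to 187 bp apart. At 4.45% to 17.1% of the sites of a number the 200 library listed several peaks. The 600 library listed several at 0 to 3 sites of a number.

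The same sites were weaker in 600. The median strength difference was -1.56, -1.01, -0.54, -1.13, -0.71, -1.13 and -1.23 for replicates 1 to 7, with a mean of -1.04 ± 0.34 (exact sign-flip permutation, two-sided, p = 0.0156). Height differed by -0.323 ± 0.149 (-0.515 to -0.078), also lower in 7 of 7 numbers (exact sign-flip permutation, p = 0.0156). The width difference did not depend detectably on place: it was larger at sites elsewhere than at sites near gene ends by 9.07 ± 138.9 bp (exact sign-flip permutation, p = 0.766). Without replicate 2, which has 2 such sites near gene ends, that was 46.2 ± 107.6 bp (p = 0.406), and without replicate 3 it was -30.9 bp (p = 0.625, exact sign-flip permutation). The direction of the strength difference turned at the strongest sites, a pattern seen in the data and not tested. Of 3035 sites with a 200 strength under 5, 308 (10.1%) were stronger in 600. Of 4857 sites with a 200 strength of 5 to 10, 79 (1.63%) were stronger in 600, and of 34 with 10 to 20, 12 (35.3%). Of 38 sites with a 200 strength of 20 or more, 31 (81.6%) were stronger in 600, and all 38 lay more than 1000 bp from any gene end. These 38 are counted over 7 numbers and are not 38 separate places, since a few regions recur. Regions on chromosomes 4, 9 and X, described below, had a 200 strength above 20 in 7 of 7 numbers, and each was stronger in 600 in all 7. The region nearest to DOCK10 was also above 20 in 7 of 7, and 5 were stronger in 600. At SPOCK3, with a median 200 strength of 24.4, 1 of 7 was stronger in 600.

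**Figure D3:**
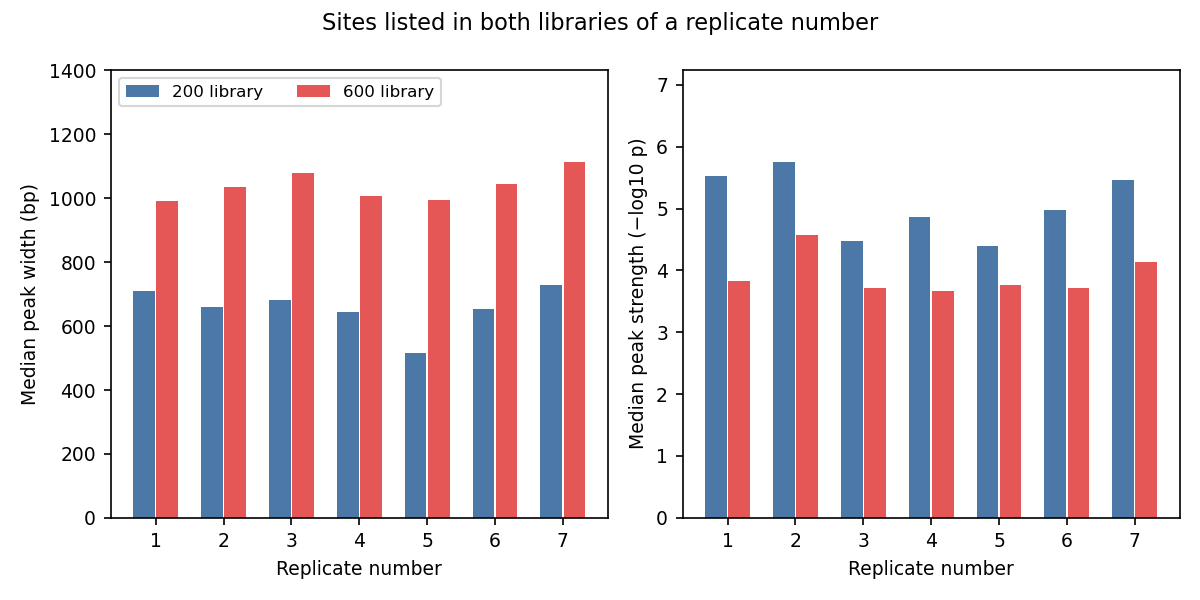
Median peak width in bp and median peak strength (−log10 p) over the sites listed in both libraries of a replicate number, as bars for the 200 and the 600 library, with 51 to 3146 sites behind each pair of bars. In each of the 7 numbers the 600 bar is higher for width and lower for strength.

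Chains of peaks with at least 1 bp in common made up 11386 regions over the 14 libraries. Of these, 4267 (37.5%) were listed in both labels, 6643 (58.3%) only in 200 libraries and 476 (4.18%) only in 600 libraries. Regions of both labels lay near gene ends in 66.0%, those of 200 only in 42.5% and those of 600 only in 29.6%. Most regions of a single label came from a single library, 70.0% for 200 and 87.6% for 600. Of the 1090 regions listed in at least 3 libraries of each label, 1058 (97.1%) had a larger median width in 600 and 1033 (94.8%) a lower median strength, with a median difference of 382 bp in width and -1.05 in strength.

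No single region separated the labels after adjustment. Fisher's exact test on the number of libraries that listed a region, two-sided, was run on the 4421 regions in at least 3 libraries, and 0 (0%) passed with Benjamini-Hochberg adjustment (smallest adjusted p = 0.152). At an unadjusted p under 0.05 there were 71 (1.61%), 70 listed in more 200 libraries (1.58%) and 1 in more 600 libraries (0.0226%). An exact sign test within numbers passed 0 after adjustment and 39 (0.882%) unadjusted. The smallest p it allows with 7 numbers is 0.0156. Over 4421 regions that is too large to pass unless very many regions share the extreme split, so its 0 decides nothing. The most extreme split, 7 libraries against 0, has p = 0.000583 by Fisher's exact test and was found in 17 regions, while 52 at that split would have been needed to pass. The regions named next are therefore examples that did not pass.

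The 17 regions listed in 7 of 7 low fat 200 libraries and in no low fat 600 library all lay outside annotated genes, and none was within 1000 bp of a gene end. Over all regions 50.8% lay near gene ends. Listing in 7 of 7 needs a peak of replicate 2, whose 200 list had 80.1% of peaks outside genes and 5.10% near gene ends. The choice itself thus favours such places. Most of the 17 were narrow. Their median widths in 200 ran from 223 to 1198 bp (median 319 bp), and 11 of 17 had a median under 440 bp, the width of the narrowest 600 peak. A region on chromosome 2 (Sscrofa11.1, chr2:50614827-50615066) had 200 widths of 225 to 240 bp and strengths of 4.59 to 5.60 (median 5.53). A neighbour at chr2:50672380-50672666 had strengths of 4.30 to 6.27 (median 4.96), and its nearest annotated gene, JMJD4, was 132275 bp away. Both are thus far from annotated genes. The highest median strength of the 10 named by the rule, 7.25, was at chr6:38757235-38757922. The other 7 named were chr3:41852149-41852977 (nearest gene ZNF484, 41127 bp), chr5:39995988-40000172, chr5:40094678-40095557, chr6:38780962-38781471, chr6:55804834-55805370, chr7:24596620-24598332 and chr7:24600388-24601540. Of the rest, 2 lay close to genes: chr7:25809158-25809440 was 2454 bp from GFRAL, the receptor of the hormone GDF15, and chr12:58676930-58677218 was 2700 bp from PMP22, a myelin protein gene. These 2 were picked out after their positions were seen.

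The high fat libraries were not used to choose these regions. There the 17 regions were listed in 5 to 7 of 7 high fat 200 libraries (median 7) and in 0 to 2 of 7 high fat 600 libraries (median 0). All 17 were in more 200 than 600 libraries, and 12 were in no high fat 600 library. Widening the choice to the 53 regions in at least 5 low fat 200 libraries and no 600 library gave 41 outside genes and 8 near gene ends, and 51 of the 53 were in more 200 than 600 libraries of high fat. Over all 4421 regions tested in low fat, 2420 (54.7%) were in more 200 than 600 libraries of high fat, where the 200 lists are also the longer ones, 208 (4.70%) in more 600 libraries and 1793 in equal numbers.

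The spacing of those 53 regions was also described. With gaps of up to 500 kb joined, 26 of them (49.1%) fell into 7 stretches. No such share over all regions stands beside it, so closeness is not shown to be a trait of these 53. The largest, chr9:63231569-63477062, held 10 of the 53 and in all 36 regions with a 200 peak and 11 with a 600 peak. The next held 4 regions at chr6:38750556-38834117, 3 at chr7:24596620-24603075 and 3 at chr5:39995988-40095557. Among the 8 near gene ends were those of KLF11 (124 bp), a zinc-finger transcription factor, CRELD2 (67 bp), an endoplasmic reticulum stress gene, and SEC61A2 (52 bp), of the protein translocation channel, each in 5 of the 200 libraries.

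The 600 lists were the shorter ones in 7 of 7 numbers. Of the 4421 regions tested, 354 were listed in more 600 libraries, 3363 in more 200 libraries and 704 in equal numbers. One at chr5:39893110-39894840 was listed in 5 of 7 low fat 600 libraries and no 200 library (Fisher's exact test, two-sided, p = 0.0210 unadjusted), with strengths of 3.99 to 5.65 (median 4.65) and widths of 1157 to 1731 bp. In high fat it was in 6 of 7 libraries of 600 and none of 200. It lies in the same part of chromosome 5 as the 200 regions above. Next came chr16:22994-23973, with ROPN1L the nearest gene, and a region on chromosome X nearest to MAGEE2, each in 5 of the 600 and 1 of the 200 libraries (Fisher's exact test, p = 0.103 unadjusted).

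Another 9 regions were listed in 3 of the 600 and none of the 200 libraries (Fisher's exact test, p = 0.192 unadjusted). They were nearest to TRMT11, LOC110259857, DDX11, PEX26, LOC106504565, TRNAP-AGG, C1QTNF7, EGFR and GSTO1. The region at PEX26, a peroxisome assembly gene, was 334 bp from its end, and that of DDX11, a DNA helicase gene, lay inside the gene. Of these 9 and the chromosome 5 region, 2 were in more 600 than 200 libraries of high fat and 0 in more 200, so most showed no lean there.

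Gene ends listed in most libraries were compared between the labels. A region listed in most of the 14 libraries must be listed in both labels, so the sharing itself follows from the choice. Among the 10 regions within 1000 bp of a gene end that were listed in most of the 14 libraries were those of TLE4, FER, REL, MSANTD4, SP4, ZBTB20 and ZNF622, in 6 libraries of each label, and of LMBRD1 and NMRK1, in 6 of the 600 and 5 of the 200. None of the 10 was listed in replicate 2. Values below are the highest of a library within the region. At TLE4, a Groucho family corepressor (chr1:232354910-232357221), the width was 725 to 938 bp in 200 (median 767.5) and 916 to 2281 bp in 600 (median 1201.5). Its strength was 4.09 to 10.1 in 200 (median 6.78) and 3.57 to 8.66 in 600 (median 4.99). The ranges overlap, but within numbers 6 of 6 were wider and 6 of 6 weaker in 600. At SP4, a zinc-finger transcription factor gene (chr9:90335947-90337810), the width was 561 to 1437 bp in 200 (median 647.5) and 1169 to 1852 bp in 600 (median 1528). At ZBTB20, a repressor of fetal liver genes (chr13:144854707-144856728), the median width was 1004.5 bp in 200 and 1363.5 bp in 600, and 5 of 6 numbers were weaker in 600. REL encodes an NF-κB subunit, FER a tyrosine kinase and NMRK1 a kinase of NAD synthesis, and all 3 were weaker in 600 in each number with both peaks. Over the 10 regions, 55 of 58 comparisons within a number were wider (94.8%) and 56 of 58 weaker (96.6%) in 600. Over all 7964 shared sites these shares were 90.3% and 94.6%, close to those of the 10 regions.

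Listed in all 14 libraries were 10 regions, none within 1000 bp of a gene end, and 7 lay outside annotated genes. This choice also needs a peak of replicate 2 in both labels, which has few peaks near gene ends. By label medians 9 of the 10 were wider in 600 and 5 of the 10 were stronger in 600. The strongest, chr4:53952623-53954548, had a strength of 223 to 645 in 200 (median 452) and 1093 to 7880.9 in 600 (median 3859). The groups do not overlap, and within numbers 600 was 2.87 to 20.6 times stronger (median 10.0). At chr9:4699774-4702440 the strength was 127 to 551 in 200 (median 282) and 438 to 3284 in 600 (median 1259). At chrX:22066775-22069793 it was 74.7 to 355 in 200 (median 193) and 225 to 1607 in 600 (median 629). In both, 600 was stronger in 7 of 7 numbers, with median ratios of 5.85 and 4.52. The choice of these regions used presence and not strength, and no test was run on them.

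Others of the 10 were weaker in 600. Inside PDE4D, a cyclic AMP phosphodiesterase gene (chr16:37934727-37935424), the strength was 6.26 to 13.7 in 200 (median 11.4) and 3.08 to 10.9 in 600 (median 9.55). It was lower in 600 in 7 of 7 numbers, and the width was 305 to 336 bp in 200 and 661 to 698 bp in 600. Inside SPOCK3, a proteoglycan gene (chr14:21808222-21808918), the width was 332 to 438 bp in 200 and 695 to 697 bp in 600, and 1 of 7 numbers was stronger in 600. In both regions the widths do not overlap between labels, and at SPOCK3 the 600 widths hardly vary. Inside LOC100737183 on chromosome 8, 0 of 7 numbers were stronger in 600, and next to LOC102161970 on chromosome 10, 3 of 7. For DOCK10, the nearest gene of a region on chromosome 15, it was 5 of 7. Of a pair of regions at the start of chromosome 8, where PIGG is the nearest gene, the counts were 4 of 7 (positions 1078 to 8795) and 6 of 7 (positions 10157 to 14723).

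**Figure D4:**
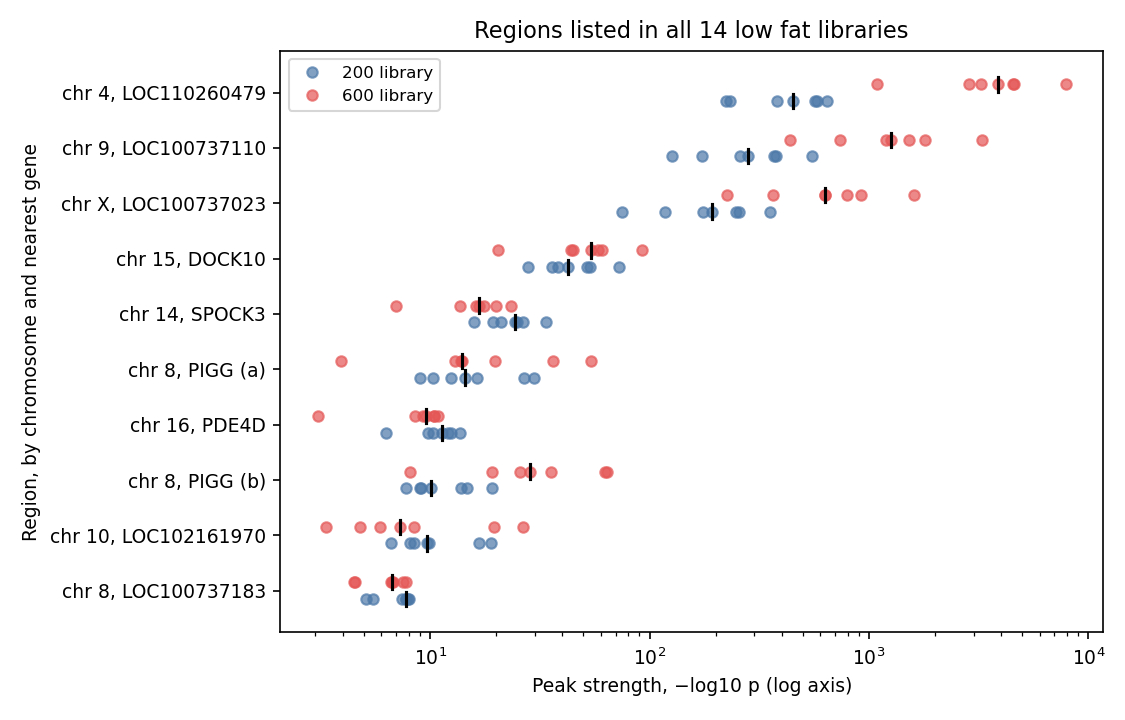
Peak strength (−log10 p, log axis) of the 10 regions listed in all 14 libraries, named by chromosome and nearest gene, with 1 point per library and a black bar at each label's median; PIGG (a) and (b) are the regions at positions 1078 and 10157 of chromosome 8. On chromosomes 4 and 9 and on X the 600 points lie to the right, with medians of 3859, 1259 and 629 against 452, 282 and 193, while at PDE4D the median is 9.55 against 11.4.

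Fewer genes had a peak at an end in 600. Among 19484 protein-coding genes, at least 1 of the 200 libraries listed a peak at an end (within 1000 bp) of 6217 (31.9%), and at least 1 of the 600 libraries at an end of 3385 (17.4%). Of the 200 set 3218 (51.8%) were also in the 600 set, and 167 genes were only in the 600 set. Among the 16315 of these genes with a symbol, as all list members have, the shares were 36.1% and 19.7%. The gene lists below are described against these shares and were not tested. Libraries with long lists supply most of the genes in both labels. Counts in brackets are the numbers of 200 and of 600 libraries with a peak at the gene's end.

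Chaperone genes, which fold proteins, were listed most completely: 15 of 15 in 200 and 14 of 15 in 600. HSPA13 and PDIA4 were each listed in 6 of the 200 and 5 of the 600 libraries, as were HSPD1 and HSPE1, which share an end. HSPA8 had 5 and 5 libraries, and DNAJB1 4 and 5. HSP90AB1, in 1 of the 200 libraries, was the member without an end peak in 600. Immediate early and stress genes, which respond within minutes to stimuli, stood at 11 of 15 in 200 and 9 of 15 in 600. JUND (5, 4) was in most 200 libraries, followed by EGR1 (4, 3), DUSP1 (4, 2), IER2 (4, 1) and KLF6 (4, 1). JUNB had 3 libraries of each label, JUN (1, 3) and MYC (2, 3) were listed in more 600 libraries, and FOS, FOSB, ATF3 and GADD45B had no end peak. With peaks inside the gene counted as well, ATF3 stood at 3 and 1 libraries.

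Circadian clock genes stood at 11 of 14 in 200 and 7 of 14 in 600. The activator ARNTL was in 5 of the 200 and 3 of the 600 libraries and the repressor NR1D2 in 4 and 3. Among the repressors, PER3 (4, 2) had an end peak in both labels, while CRY2 (4, 0), PER1 (3, 0), PER2 (2, 0) and CRY1 (1, 0) had none in 600. NPAS2 and NR1D1 had no end peak in either label, and BHLHE40 (0, 1) had one only in 600. With peaks inside the gene counted as well, BHLHE40 stood at 4 libraries of each label and CRY2 at 4 and 1. NR1D1 then stood at 3 and 0 and NPAS2 at 2 and 0, and PER1, PER2 and CRY1 still had none in 600. These splits of single genes are no larger than those above that did not pass. Sterol and bile acid genes stood at 10 of 13 and 6 of 13, with HMGCS1 (5, 4), INSIG2 (4, 3) and INSIG1 (3, 0), members and regulators of cholesterol synthesis. The bile acid enzymes CYP7A1, CYP8B1 and CYP27A1 had no end peak in either label, and CYP7A1 had a peak inside the gene in 2 of the 200 libraries.

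De novo lipogenesis genes, which make fatty acids, stood at 8 of 14 in 200 and 3 of 14 in 600. THRSP (3, 2) and FADS2 (1, 1) were listed in both, ELOVL6 (1, 2) in more 600 libraries and ACLY (3, 0) in 200 only. ACACA, FASN, SCD and SREBF1 had no end peak in either label. With peaks inside the gene counted as well, ACACA stood at 4 and 2 libraries, SREBF1 at 1 and 0 and ELOVL6 at 4 of each label. FASN and SCD still had none. Genes of fatty acid oxidation and ketogenesis stood at 4 of 15 and 3 of 15, close to the share of all genes. ACADM, the medium-chain acyl-CoA dehydrogenase, was in 3 of the 200 and 5 of the 600 libraries, and PDK4, a kinase that restrains glucose oxidation, in 4 and 3. For CPT1A and PPARA no end peak was listed. Triglyceride synthesis and lipid droplet genes stood at 4 of 16 and 2 of 16, with MOGAT1 (6, 3) and PLIN2 (3, 2) in both labels and ABHD5 (2, 0) and PNPLA2 (1, 0) in 200, and none for DGAT1 or DGAT2. Pig fatness candidates stood at 4 of 15 in each label: LEPROT (6, 4), ADIPOR1 (6, 4), ADIPOR2 (2, 1) and FTO (1, 1), with LEPR, LEP and MC4R among those without a peak.

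The tissue label was set against marker genes. Hepatocyte transcription factors stood at 9 of 15 in 200 and 5 of 15 in 600, with FOXA1 (3, 2), NR5A2 (2, 3) and ESRRA (4, 1), while HNF4A and FOXA2 had no end peak in either label. Hepatocyte secretory and metabolic genes stood at 8 of 16 and 7 of 16, with HPX (4, 3), TTR (2, 2) and ALB (1, 2) in both labels. APOA1, SERPINA1 and CPS1 had no end peak in either. Inside the gene, CPS1 had a peak in 2 libraries of each label, and NR1H4 in 2 of the 200 and 1 of the 600. HNF4A had one in 2 of the 200 libraries, and SERPINA1 and AHSG in 1 each. Of those without an end peak, 4 of 6 factors and 5 of 8 secretory and metabolic genes had none inside either. Of 12 Kupffer cell and macrophage markers CD14 (2, 1) alone had an end peak, and MARCO and CSF1R each had a peak inside the gene in 2 of the 200 libraries. No marker was listed at an end in either label among 13 of endothelial and stellate cells, 5 of cholangiocytes, 11 of lymphocytes and 8 of erythroid cells. Among the erythroid markers KLF1 had a peak inside the gene in 1 of the 200 libraries. With lists this short an unlisted marker does not show that its cells were missing.

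**Figure D5:**
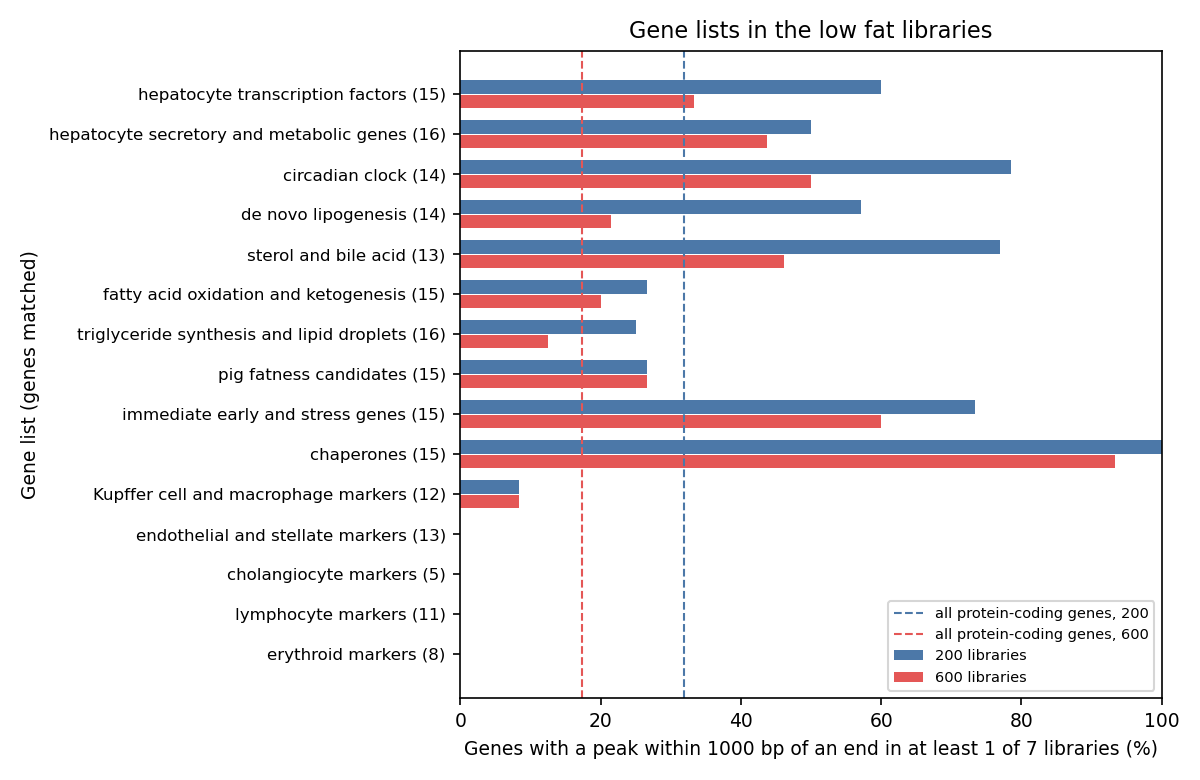
Share of each gene list (%) whose ends (within 1000 bp) held a peak in at least 1 of the 7 low fat libraries of a label, with dashed lines at the shares of all protein-coding genes, 31.9% in 200 and 17.4% in 600. Chaperones reach 100% in 200 and 93.3% in 600, and the bars of endothelial and stellate, cholangiocyte, lymphocyte and erythroid markers are at 0.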

How the data were processed

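The authors deposited one peak list per library. The tools in the submitters' processing notes are BWA, Genrich, Picard, SAMtools and FastQC, with the build Sscrofa11.1 and no versions or roles. Per the file headers the table gives position, score, signal value, a p-value column and summit. The deposited signal is the peak's area, at least 400.006. The deposited score equalled 1000 times signal over width, rounded and capped at 1000, in 99.9988% of peaks and was used only for that check. The deposited p-value column exceeds 1 and was read as −log10 p. Running peak names have gaps, so called peaks had been removed. Starts were taken to count from 0 and are printed from 1.

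With Python 3.11.15, numpy 2.4.6, pandas 2.3.3 and scipy 1.17.1, library medians and shares were compared by exact permutation over 7 against 7 libraries, regions in at least 3 libraries by Fisher's exact test, and numbers by exact sign flips, all two-sided. Scripts were tested on simulated data. Genes came from the RefSeq table of Sscrofa11.1 (28073 on the chromosomes used, 2298 elsewhere left out), which gives no strand or exons, so both gene ends were used. Of 201 list members 197 matched. LSS, IDI1, HSP90AA1 and KRT7 did not. The alternatives changed the overlap rule, the filters, the libraries used and the block on replicate number.

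Named regions are the 10 with the smallest p per direction (ties by number of libraries, then position), the 10 gene-end regions in most libraries, the 10 strongest in 600 and those in at least 3 of the 600 and none of the 200 libraries. The 10 regions in all 14 libraries were added to these. Of the 10 strongest in 600, 8 are among them. The remaining pair had ROPN1L (34305 bp away) and TRNAL-CAA (98387 bp away) as nearest genes. The first was listed in 4 of the 600 and 5 of the 200 libraries and the second in 3 and 6. Their median strengths in 600 were 59.2 and 26.7. Some genes that the rule or the lists select are not reported here by name. Members, lists and tests were chosen with earlier results of these data known.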

Additional observations from a re-analysis of the deposited data

Results flagged for a closer look

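In 23 groups of 7 values, the highest or lowest value was compared with its nearest neighbour by Dixon's ratio, with a critical value of 0.568 that chance passes in about 1 of 20 groups. The test marked 4 groups, and in each the value was that of replicate 2, whose lists are the shortest of their label. Its 600 library had 1.98% of its peaks near gene ends, against 50.4% in the next lowest. Outside genes it had 90.1%, against 50.4% in the next highest 600 library. Its 200 library had 80.1% outside genes, against 48.3% in the next highest. The share outside genes was 10.0 percentage points higher in its 600 than in its 200 library, against 2.01 in the next highest number.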

How the results depend on the processing

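Of 213 values recomputed under another setting, 189 kept their direction and their side of the threshold, 12 lost it, 4 gained it and 8 changed sign. With replicate number as a block, log10 peak number (-0.496) and height (-0.173) passed (adjusted p = 0.0234 for each, exact sign-flip permutation), and no other call changed. The labels give only shared numbers: presence deviations correlated at 0.024 to 0.625 within numbers, 6 of 7 over 0.1, 2 of 7 best with their own number, so same-numbered libraries were not taken as shown to be pairs. Peak numbers of a number moved together (Pearson r = 0.962, exact permutation p = 0.00119; Spearman rho = 0.964, exact p = 0.00278; n = 7; r = 0.983 without the 2 farthest). With the 200 lists cut to their strongest peaks, as many as their 600 list holds, height differed by -0.813 and strength by -1.67 (adjusted exact permutation p = 0.00117 for both). That choice of strong peaks itself raises the 200 medians (height from 1.31 to 1.95, strength from 4.33 to 5.45), so these p-values carry no weight. Among peaks above the label's median, strength differed by -0.489 (adjusted exact permutation p = 0.247). With only the 4 numbers whose 600 library listed at least 500 peaks, an alternative chosen after the data were seen, width differed by 489.9 bp and strength by -0.628 (adjusted exact permutation p = 0.0857 for both, where the smallest unadjusted p is 0.0286). With equal 200 lists the own-number share was higher by 7.43 points. The causes were not tested. With 1 library left out, the difference outside genes ran from -7.35 to 5.22 and near gene ends from -3.19 to 13.2. The overlap of 200 peaks near gene ends minus elsewhere ran from -0.805 to 7.97. Width ran from 473.6 to 498.6 bp, strength from -0.630 to -0.470, height from -0.215 to -0.126 and log10 peak number from -0.653 to -0.373. Regions passing stayed at 0 in all 20 alternatives by Fisher's exact test or, with the block, the sign test. The sign test could hardly have passed a region, as stated above. At an unadjusted p under 0.05 there were 39 to 198 regions, and 176 to 198 without the 200 library of replicate 2, 3 or 5. Unknown depth limits every strength and every unlisted region.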

Other observations

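Peak lists were also compared by chromosome, a question added after the data were seen. Chromosome 16 held 3.95% ± 1.18 (SD, n = 7) of the peaks of a low fat 600 library and 2.40% ± 0.41 of a 200 library. The share was higher in 600 in 7 of 7 numbers (exact permutation test, two-sided, p = 0.00117, adjusted p = 0.0221 over 19 chromosomes). Chromosomes 8 and 13 were also higher in 7 of 7 numbers and chromosomes 11 and 18 lower in 7 of 7, with the same exact sign-flip p = 0.0156. The other 18 chromosomes did not pass, and the nearest was chromosome 3, lower by 1.40 percentage points in 600 (adjusted p = 0.0609, exact permutation). The chromosome 16 call was lost with the number of peaks matched (difference 1.55, adjusted p = 0.233), with only the 4 numbers whose 600 library listed at least 500 peaks (0.515, adjusted p = 0.109) and without the 200 library of any 1 of replicates 1 to 6 (1.40 to 1.57, adjusted p = 0.0609 to 0.0775, exact permutation). High fat libraries had 5.95% ± 4.64 in 600 and 2.76% ± 0.52 in 200 (exact permutation p = 0.0152, adjusted p = 0.277).

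Low fat regions with peaks from a single 600 and a single 200 library numbered 511, and for 355 (69.5%) these carried the same number. Long lists supply most of such regions, and the share is given as a description with no test.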
